A study of Homo sapiens with 6 samples.

Results

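Microtubule plus-end tracking proteins were examined in RNA-seq of A549 cells, an established human lung adenocarcinoma line, after knockdown of the centrosomal protein gene CEP20. The 10 genes were chosen by symbol and belong to the end-binding, CLIP and CLASP families or to their partners. They were CLIP1, CCSER2, MAPRE1, MAPRE2, MAPRE3, CLASP1, CLASP2, CKAP5, SLAIN2 and TACC3, and all 10 were found among the 60624 Ensembl genes of the deposited table. The 3 siCEP20 samples received small interfering RNA against CEP20 and the 3 siCTR samples received control siRNA, both for 3 days according to the labels. The study's methods name DMEM, TRIzol, siRNA delivery and stranded libraries, whereas the labels name F-12K medium, a column RNA kit and, in 1 field, a plasmid. The comparison asks how transcripts of these genes differ when CEP20 is reduced. The study used more than 1 siRNA against CEP20, and the labels do not say which was sequenced.

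Microtubules grow and shrink mainly at their plus ends. End-binding (EB) proteins recognize the growing end by themselves and recruit most other plus-end proteins through short peptide motifs or through CAP-Gly domains that bind the EB tail. CLIPs link growing ends to cargo and to actin regulators, CLASPs slow shrinkage and promote rescue, and the polymerase CKAP5 adds tubulin with the help of SLAIN2 and TACC3. In lung cancer cell lines as in other cycling cells, these proteins serve both the interphase array and the mitotic spindle.

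Values were given as TPM, a transcript abundance per length that adds up to the same total in every library, so that levels can be compared between genes but sequencing depth is unknown. Each of the 14778 genes that averaged 1 TPM or more was tested with limma on log2(TPM + 1), a scale that understates changes at low TPM. A gene rose or fell at a Benjamini-Hochberg adjusted p under 0.05, and was called when its fold change was also over 1.5 or under 0.67. CEP20 was at 29.2 to 35.1 TPM in siCTR and 15.3 to 17.3 TPM in siCEP20 libraries (log2 fold change -0.92, limma adjusted p = 0.000205). The median change over all tested genes was 0.13 on the log2 scale, against 9.4e-05 after median-of-ratios scaling, so that changes are also given relative to all tested genes. The epithelial keratins KRT8 and KRT18 were at 1535 to 2421 TPM and AKR1B10, ALDH1A1 and NQO1, high in A549, at 874 to 2506 TPM, with KRT19 at 69.0 to 89.8, CDH1 at 11.1 to 24.1 and AKR1C1 at 178 to 237 TPM, whereas EPCAM reached only 3.85 TPM. Of these, EPCAM and CDH1 were called higher in siCEP20 samples, KRT8, KRT18, KRT19 and ALDH1A1 rose, and AKR1B10, AKR1C1 and NQO1 fell. Of 9 markers of other cell types, 7 (PTPRC, CD3E, PECAM1, VWF, CDH5, COL3A1 and DCN) reached at most 0.195 TPM, and CD68 and COL1A1 were higher in siCEP20 libraries. The 3 leukocyte markers summed to 15.0 to 23.0 TPM in siCTR and 27.0 to 45.3 TPM in siCEP20, nearly all of it CD68, and the 3 fibroblast markers to 5.33 to 6.03 TPM and 17.6 to 19.7 TPM, nearly all of it COL1A1. Their part in the results was not tested. In the libraries siCTR 1 and siCEP20 1, the mitochondrial pseudogene MTATP8P1 held 2.39% and 5.13% of all TPM and was listed at 0 in the other 4. With it removed and TPM rescaled, a setting chosen after seeing the data, 8 plus-end genes rose and 3 were called, as with TPM as deposited. Of the 14808 genes then tested, 4818 rose and 1750 were called higher.

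All 10 plus-end genes, chosen with earlier results of these data known, passed the filter on low values. Their counts and the shares of all tested genes beside them are thus descriptive only. Of the 10 genes, 8 rose in siCEP20 samples (30.2% of all tested genes did) and none fell (13.2% of all tested genes fell). With the fold threshold, CLIP1, CCSER2 and SLAIN2 were called higher (11.2% of all tested genes were) and none was called lower (4.61% of all tested genes were). For the same 8 genes every siCEP20 value lay above every siCTR value, which held for 38.4% of all tested genes, and no member lay wholly below, as 17.0% of all tested genes did. The median log2 fold change of the 10 was 0.31. With median-of-ratios scaling 5 rose (CLIP1, CCSER2, SLAIN2, CKAP5 and TACC3) and MAPRE3 fell. Of all 14778 tested genes 2963 rose and 3185 fell under that scaling. With a correction for length and GC content the same 5 rose, and of 14737 tested genes 2908 rose and 3112 fell. The 10 genes summed to 375, 402 and 398 TPM in the siCTR libraries and to 503, 513 and 505 TPM in the siCEP20 libraries. More cells with a transcript and more transcript per cell cannot be told apart in bulk RNA.

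**Figure D1:**
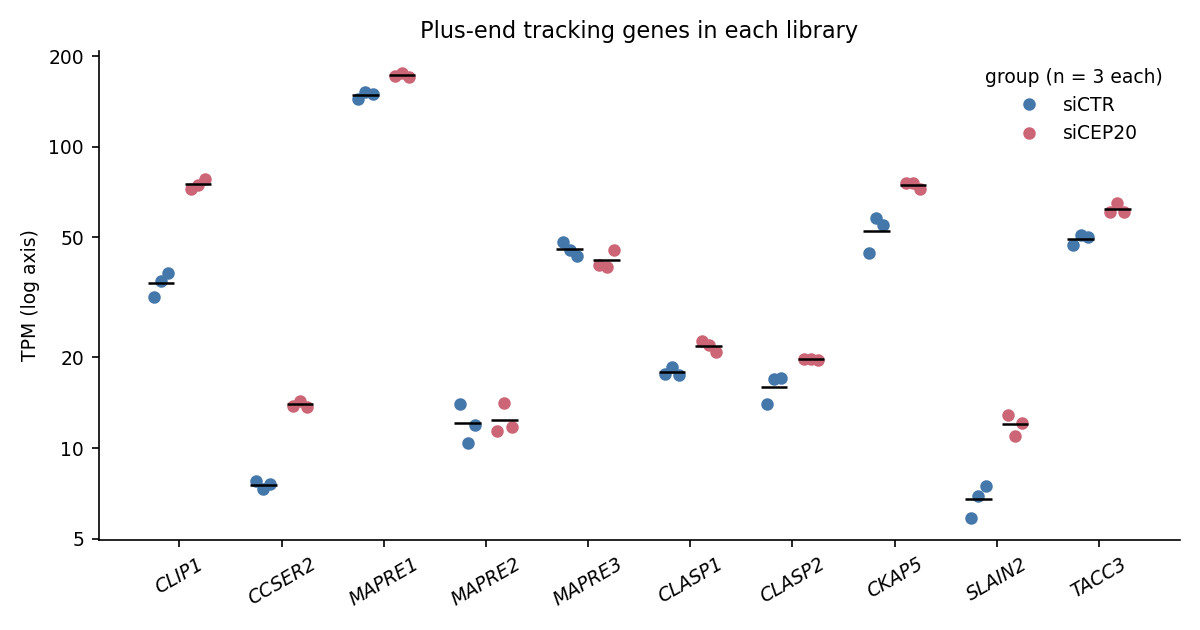
TPM of the 10 plus-end tracking genes on a log axis, with 1 point per library, siCTR in blue and siCEP20 in red, and a bar at the mean of 3. The groups are apart for 8 genes and overlap for MAPRE2 and MAPRE3.

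The largest increases were those of CLIP1, CCSER2 and SLAIN2. CLIP1 (CLIP-170, a CAP-Gly protein that follows growing ends with EB proteins) had 31.7, 36.0 and 38.0 TPM in the siCTR libraries and 72.5, 74.7 and 78.1 TPM in the siCEP20 libraries. The lowest siCEP20 value was thus far above the highest siCTR value. Its log2 fold change was 1.07 (95% CI 0.89 to 1.26, limma adjusted p = 6.55e-05), higher than that of 98.6% of all tested genes. CCSER2, a coiled-coil serine-rich protein that binds microtubules, had 7.78, 7.34 and 7.58 TPM in siCTR and 13.8, 14.4 and 13.7 TPM in siCEP20. The 3 values of each group lay close together and the groups were apart. Its log2 fold change was 0.81 (95% CI 0.62 to 0.99, limma adjusted p = 0.00022). SLAIN2, which binds EB proteins and CKAP5 and so brings the polymerase to the growing end, had 5.88, 6.93 and 7.46 TPM in siCTR and 12.9, 11.0 and 12.1 TPM in siCEP20. The groups were apart, with siCTR 1 the lowest of the 6. Its log2 fold change was 0.75 (95% CI 0.49 to 1.01, limma adjusted p = 0.00124). Relative to all tested genes the changes were 0.94 for CLIP1, 0.67 for CCSER2 and 0.62 for SLAIN2. CLIP1 was called under all 15 alternative settings. CCSER2 lost its call only with the length and GC correction (log2 fold change 0.54) and SLAIN2 with that correction (0.51) and with quantile normalization (0.58), since the fold then fell under 1.5, and neither reached a fold change of 2. All 3 stayed past the adjusted p under every setting tried.

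CLIP1 lies on the minus strand at chr12:122271432-122422669 (hg38), CCSER2 on the plus strand at chr10:84328586-84518521 and SLAIN2 on the plus strand at chr4:48341529-48426201. No other gene at 1 TPM or more overlaps them in the annotation. Promoter windows are shown for these 3 called genes, for CKAP5 as the next in size, and for MAPRE3 as a gene that did not pass the test, so that their base composition and motifs can be compared. Each window holds 250 bases before and 50 bases after the RefSeq start site (GRCh38.p14) and is written 5′ to 3′ on the gene's strand. Capitals mark exact matches on either strand to motifs that were chosen after the sequences were seen. They were the box known by its 5 letters CCAAT, which the factor NF-Y can bind, the cell cycle homology region (CHR) with the letters TTTGAA, found in promoters of many mitotic genes, and the Sp1-type GC box with the letters GGGCGG. The palindromic cyclic AMP response element (CRE, TGACGTCA) was searched as well, and matches in none of the windows shown. CLIP1 at chr12:122422620-122422919, minus strand, CCSER2 (the first of 2 RefSeq promoters) at chr10:84328339-84328638, plus strand, SLAIN2 at chr4:48341279-48341578, plus strand, CKAP5 at chr11:46846231-46846530, minus strand, and MAPRE3 (the first of 2) at chr2:26970387-26970686, plus strand, read as follows.
CLIP1: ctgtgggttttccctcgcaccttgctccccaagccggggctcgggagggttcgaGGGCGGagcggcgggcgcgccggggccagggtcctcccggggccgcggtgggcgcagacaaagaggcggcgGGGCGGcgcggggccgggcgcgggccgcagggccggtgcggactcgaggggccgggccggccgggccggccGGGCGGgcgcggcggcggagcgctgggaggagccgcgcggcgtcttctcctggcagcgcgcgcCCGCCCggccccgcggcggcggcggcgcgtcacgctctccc
CCSER2: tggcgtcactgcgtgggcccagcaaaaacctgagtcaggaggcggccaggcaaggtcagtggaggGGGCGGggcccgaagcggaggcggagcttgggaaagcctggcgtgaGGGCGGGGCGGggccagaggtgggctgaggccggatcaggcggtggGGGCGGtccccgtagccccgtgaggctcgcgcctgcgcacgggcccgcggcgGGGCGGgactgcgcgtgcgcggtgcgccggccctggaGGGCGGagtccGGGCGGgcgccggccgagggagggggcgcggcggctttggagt
SLAIN2: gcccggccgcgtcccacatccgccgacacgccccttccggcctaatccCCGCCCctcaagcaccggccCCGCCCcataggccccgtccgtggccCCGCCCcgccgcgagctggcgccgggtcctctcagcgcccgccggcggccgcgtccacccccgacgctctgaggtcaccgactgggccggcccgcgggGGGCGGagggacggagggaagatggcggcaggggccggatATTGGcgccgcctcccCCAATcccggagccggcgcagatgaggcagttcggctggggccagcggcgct
CKAP5: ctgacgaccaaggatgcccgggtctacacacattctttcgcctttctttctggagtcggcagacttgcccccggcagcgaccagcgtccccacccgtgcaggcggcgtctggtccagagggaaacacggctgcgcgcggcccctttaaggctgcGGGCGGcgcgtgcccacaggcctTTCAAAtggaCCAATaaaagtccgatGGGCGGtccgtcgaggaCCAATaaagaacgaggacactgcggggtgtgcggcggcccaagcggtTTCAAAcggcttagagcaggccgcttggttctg
MAPRE3: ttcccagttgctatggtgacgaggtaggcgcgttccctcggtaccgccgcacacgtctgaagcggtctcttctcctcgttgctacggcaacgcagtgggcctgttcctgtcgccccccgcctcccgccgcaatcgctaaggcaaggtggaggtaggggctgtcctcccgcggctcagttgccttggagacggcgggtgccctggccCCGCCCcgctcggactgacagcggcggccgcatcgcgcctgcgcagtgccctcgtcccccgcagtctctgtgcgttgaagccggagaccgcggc

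The windows shown for the 3 called genes were rich in G and C. The GC content was 84.0% for CLIP1, 77.7% for CCSER2 and 78.3% for SLAIN2, with 54, 38 and 42 CpG dinucleotides, whereas the median of all 35116 RefSeq promoters was 58.7% with 14 CpG. CLIP1 held 4 GC boxes, at -196, -125, -54 and 10 from the start site (the first transcribed base is 1), CCSER2 held 7 and SLAIN2 held 4. The second RefSeq promoter of CCSER2 differed, with 42.7% GC, 3 CpG, no GC box and 2 CHR matches. SLAIN2 also had CCAAT boxes at -18 and -2. CKAP5 (63.0% GC) held 2 CHR matches at -73 and 18, CCAAT boxes at -63 and -30, and 2 GC boxes. MAPRE3 (69.3% GC) had a single GC box at -44 and neither a CCAAT box nor a CHR in this window. The promoter of MAPRE1 (70.0% GC) held 5 GC boxes, a CCAAT box and a CHR at 10, so that rich GC box content was not restricted to the called genes. Among the 15 promoters of the 10 genes, 8 held a GC box (45.0% of all promoters did), 7 a CCAAT box (34.6%), 5 a CHR (15.2%) and 2 a CRE (1.85%). Some GC boxes of CCSER2 and MAPRE1 overlap or abut, and the 15 windows include several of the same gene. A match describes letters only and is no evidence of binding.

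**Figure D2:**
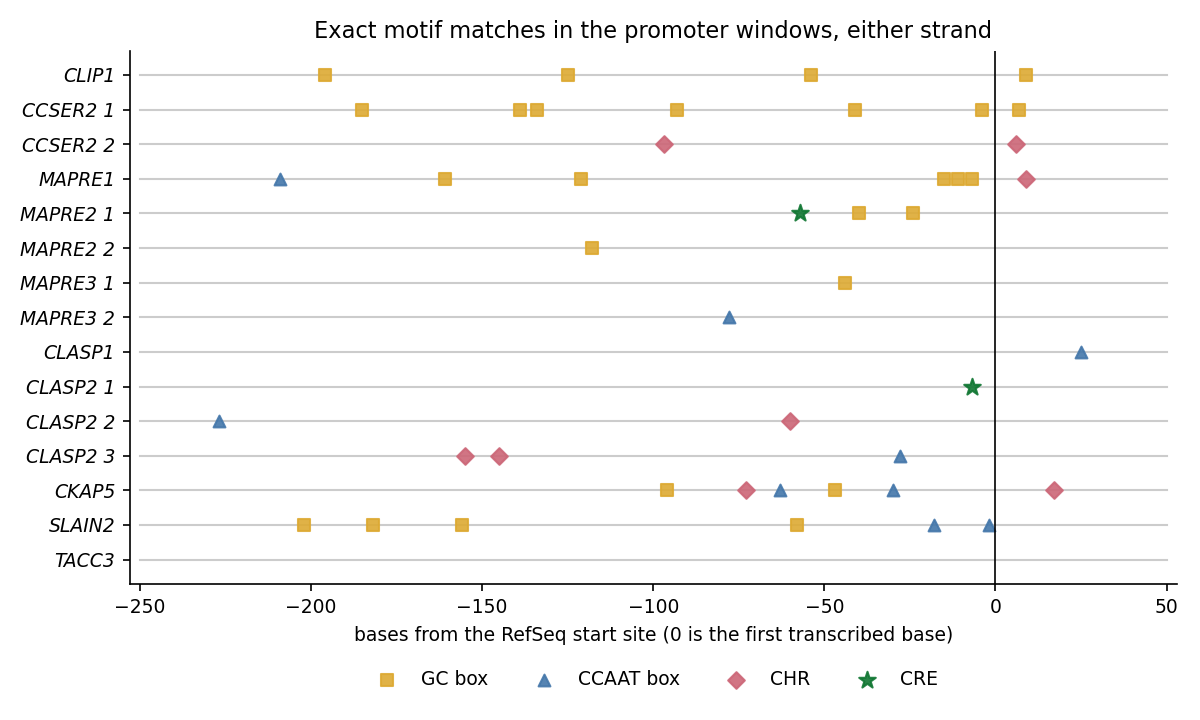
Exact motif matches in the 15 RefSeq promoter windows of the plus-end tracking genes, by distance in bases from the start site, with a number after the symbol where a gene has several promoters. CCSER2 promoter 1 shows 7 GC boxes and CLIP1 and SLAIN2 show 4 each, CKAP5 shows 2 CHR matches, and TACC3 shows no match.

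The EB genes, whose proteins place most of the other members at the growing end, had small differences between groups. MAPRE1 (EB1) was the most abundant of the 10 genes in every library. It had 144, 152 and 150 TPM in siCTR and 172, 176 and 170 TPM in siCEP20. The groups did not overlap, although the difference was small beside that of CLIP1. The log2 fold change of MAPRE1 was 0.22 (95% CI 0.10 to 0.33, limma adjusted p = 0.00952), or 0.08 relative to all tested genes, and it was no longer past the threshold with median-of-ratios scaling (0.07, limma adjusted p = 0.27) or with a correction for GC content and transcript length (0.08, limma adjusted p = 0.18). The 3 processed pseudogenes of MAPRE1 reached at most 0.0635 TPM, as counted by the authors.

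MAPRE2 (EB2, an EB paralog with a part in reorganizing microtubules of polarizing epithelial cells) had 14.0, 10.4 and 11.9 TPM in siCTR and 11.4, 14.1 and 11.8 TPM in siCEP20. The groups overlapped throughout. Its log2 fold change was 0.04 (95% CI -0.25 to 0.33, limma adjusted p = 0.82), and the sign turned under several settings. MAPRE3 (EB3) had 48.4, 45.5 and 43.6 TPM in siCTR and 40.6, 39.9 and 45.4 TPM in siCEP20. The library siCEP20 3 lay among the controls and the other two siCEP20 libraries below them. The log2 fold change of MAPRE3 was -0.12 (95% CI -0.30 to 0.05, limma adjusted p = 0.22), or -0.26 relative to all tested genes, and it was -0.27 and past the threshold with median-of-ratios scaling (limma adjusted p = 0.0395). The interval of MAPRE3 leaves out an increase of the size seen in MAPRE1.

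Shares within a library do not depend on the scale between libraries. MAPRE1 made up 69.8%, 73.1% and 73.0% of the TPM of the 3 EB genes in siCTR and 76.8%, 76.5% and 74.8% in siCEP20 libraries. The groups were apart, by 4.09 percentage points on average. By a two-sided exact permutation test p was 0.1, which is as low as 3 samples against 3 can go, and 0.133 after adjustment over the 8 ratios compared. MAPRE3 made up 22.2% ± 1.11 of EB TPM in siCTR and 18.5% ± 1.36 in siCEP20 (SD, n = 3 each), and the groups did not overlap. The share of MAPRE2 was 5.86% ± 0.889 and 5.47% ± 0.583 (SD, n = 3 each), with overlap.

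Set against MAPRE1 in the same library, CLIP1 and CCSER2 were higher in every siCEP20 sample. The CLIP1 to MAPRE1 ratio of TPM was 0.22, 0.24 and 0.25 in siCTR and 0.42, 0.42 and 0.46 in siCEP20 libraries, 1.84 times as high on average (two-sided exact permutation p = 0.1, adjusted 0.133). The CCSER2 to MAPRE1 ratio was 0.0539, 0.0484 and 0.0506 in siCTR and 0.0803, 0.0818 and 0.0808 in siCEP20 libraries, 1.59 times as high on average (exact permutation p = 0.1, adjusted 0.133). Neither ratio overlapped between groups. Within its own family, CLIP1 took 27.1%, 25.6% and 27.0% of the TPM of CLIP1 to CLIP4 in siCTR and 41.7%, 41.1% and 42.4% in siCEP20 libraries.

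**Figure D3:**
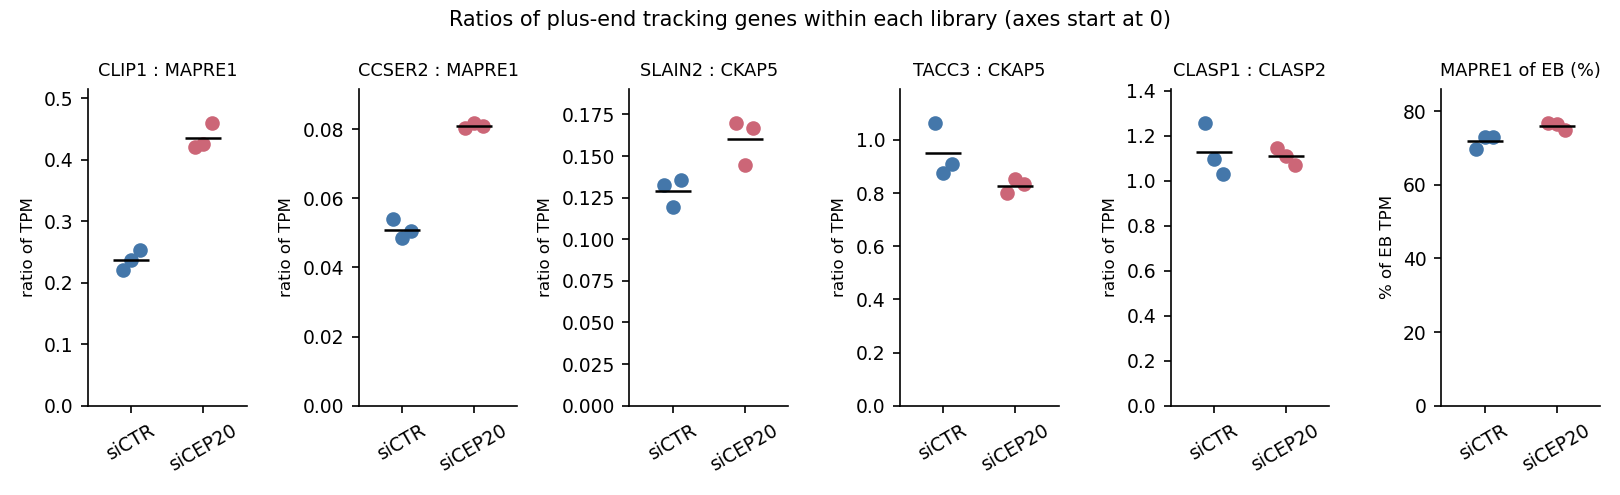
Ratios of TPM within each library, and the share of MAPRE1 in EB TPM, with 1 point per library, a bar at the mean of 3 and axes from 0. The CLIP1, CCSER2 and SLAIN2 ratios and the MAPRE1 share are higher in every siCEP20 library, TACC3 to CKAP5 is lower, and CLASP1 to CLASP2 overlaps.

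The CLASPs, which bind EB proteins and stabilize microtubules at the cell edge and at kinetochores, were slightly higher in siCEP20 samples. CLASP1 had 17.6, 18.6 and 17.5 TPM in siCTR and 22.7, 22.0 and 20.9 TPM in siCEP20. CLASP2 had 14.0, 17.0 and 17.0 TPM in siCTR and 19.8, 19.8 and 19.6 TPM in siCEP20. Both genes had separate groups, with siCTR 1 well below the other controls for CLASP2. The log2 fold change of CLASP1 was 0.27 (95% CI 0.11 to 0.44, limma adjusted p = 0.0175), and that of CLASP2 was 0.29 (95% CI 0.08 to 0.50, limma adjusted p = 0.0337). Both values depended on the scale. With median-of-ratios scaling they were 0.13 and 0.15, and with the length and GC correction 0.02 and 0.04, none of them past the threshold, and with quantile normalization 0.13 and 0.15 (limma adjusted p = 0.186 and 0.139). CLASP2 was past the threshold in 7 of the 15 alternative settings and CLASP1 in 10. CLASP2 was also not past it without a filter on low TPM (limma adjusted p = 0.0723), and was not past it without siCTR 1 (0.20, limma adjusted p = 0.0679) or without any of siCEP20 1, 2 and 3 (0.29, 0.29 and 0.30, limma adjusted p = 0.084, 0.0856 and 0.0724), and CLASP1 was not without siCEP20 1 or 2 (0.25 and 0.27, limma adjusted p = 0.0633 and 0.0544). CLASP1 has the longest canonical transcript of the 10 genes, at 8141 bases. The part of transcript length in these changes was not tested.

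The ratio of the 2 paralogs did not differ beyond its spread. CLASP1 to CLASP2 was 1.26, 1.10 and 1.03 in siCTR and 1.15, 1.11 and 1.07 in siCEP20 libraries (two-sided exact permutation p = 0.9). Relative to MAPRE1, CLASP1 was at 0.122, 0.123 and 0.117 in siCTR and at 0.132, 0.125 and 0.123 in siCEP20 libraries, a difference of 0.07 on the log2 scale with groups that barely separated. CLASP2 to MAPRE1 overlapped (exact permutation p = 0.2). These ratios were not corrected for length and GC content. With that correction the log2 fold changes of CLASP1 and CLASP2 were 0.02 and 0.04, below the 0.08 of MAPRE1. CLASP1 (chr2:121337776-121649476, minus strand) overlaps the noncoding gene NIFK-AS1 on the opposite strand, whose TPM was 5.46 to 6.53 in siCTR and 7.57 to 15.0 in siCEP20 libraries. The study aligned reads with HISAT2's default settings, which assume no strand, and StringTie's strand setting is not given in the sources used here, so reads of the 2 genes may not have been told apart. CLASP2 lies at chr3:33496245-33718356 on the minus strand.

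The polymerase group of CKAP5, SLAIN2 and TACC3 rose unevenly. CKAP5 (ch-TOG, the microtubule polymerase of the XMAP215 family) had 44.4, 58.2 and 55.0 TPM in siCTR and 76.0, 76.1 and 72.7 TPM in siCEP20. The siCEP20 values lay close together, and siCTR 1 was the lowest of the 6. Its log2 fold change was 0.51 (95% CI 0.29 to 0.74, limma adjusted p = 0.00409), or 0.38 relative to all tested genes, under the fold threshold except without siCTR 2 (0.59). TACC3, which with clathrin and CKAP5 crosslinks kinetochore fibers in mitosis, had 47.2, 51.0 and 50.0 TPM in siCTR and 60.7, 65.0 and 60.5 TPM in siCEP20. The groups were apart. Its log2 fold change was 0.32 (95% CI 0.18 to 0.47, limma adjusted p = 0.00452), or 0.19 relative to all tested genes. CKAP5, TACC3 and SLAIN2 were past the adjusted p under all 15 alternative settings, but their changes were smaller under some. CKAP5 was at 0.37 with median-of-ratios scaling and 0.27 with the length and GC correction, and TACC3 at 0.18 and 0.19.

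Within libraries, the ratios of the 3 partners differed between groups in opposite directions. SLAIN2 to CKAP5 was 0.133, 0.119 and 0.136 in siCTR and 0.170, 0.144 and 0.167 in siCEP20, higher in each siCEP20 library and 1.24 times as high on average. TACC3 to CKAP5 was 1.06, 0.876 and 0.910 in siCTR and 0.799, 0.854 and 0.833 in siCEP20, lower in each siCEP20 library by 0.19 on the log2 scale. For both ratios the exact permutation p was 0.1 and the adjusted value 0.133. Without siCTR 1, the difference of TACC3 to CKAP5 was -0.11. The ratios were not corrected for length and GC content. With that correction the log2 fold changes of TACC3, CKAP5 and SLAIN2 were 0.19, 0.27 and 0.51. CKAP5 spans chr11:46743048-46846308 on the minus strand and holds the small nucleolar gene SNORD67, which was at 0.556 to 2.25 TPM. TACC3 (chr4:1712858-1745171, plus strand) overlaps TMEM129 on the opposite strand, and TMEM129 moved the other way, from 32.1 ± 1.53 to 24.8 ± 1.34 TPM (SD, n = 3 each). As for CLASP1 and NIFK-AS1, reads of TACC3 and TMEM129 may not have been told apart.

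SLAIN2 and TACC3 were also set against their paralogs. SLAIN2 took 86.4%, 83.0% and 92.2% of the TPM of both SLAIN genes in siCTR and 97.0%, 97.7% and 97.4% in siCEP20. SLAIN1 itself was too low to be tested, at 0.630 to 1.42 TPM in siCTR and 0.254 to 0.397 TPM in siCEP20. TACC3 took 28.6%, 28.0% and 27.4% of the TPM of TACC1 to TACC3 in siCTR and 25.6%, 25.5% and 22.2% in siCEP20 libraries. Its share was thus lower in every siCEP20 library while its own TPM was higher, and TACC2 was higher as well.

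**Figure D4:**
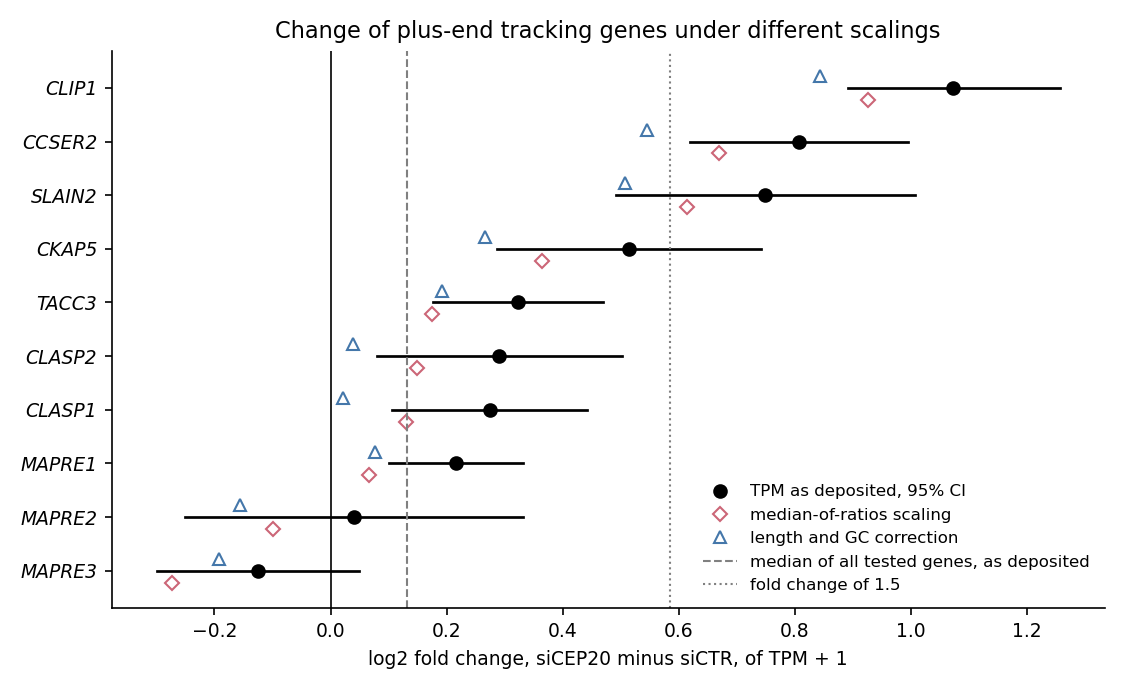
Log2 fold change (siCEP20 minus siCTR, TPM + 1) of the 10 plus-end tracking genes with TPM as deposited and its 95% CI (black), after median-of-ratios scaling (red) and after a length and GC correction (blue). CLIP1, CCSER2, SLAIN2, CKAP5, TACC3, CLASP1, CLASP2 and MAPRE1 stay above 0 in all 3. MAPRE1 shrinks to 0.07 with median-of-ratios scaling and 0.08 with the length and GC correction. CLASP1 and CLASP2 shrink to 0.13 and 0.15 with median-of-ratios scaling and to 0.02 and 0.04 with the length and GC correction. MAPRE2 turns from 0.04 to below 0.

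In siCTR libraries the order of mean levels was MAPRE1 (148 TPM), CKAP5 (52.5), TACC3 (49.4), MAPRE3 (45.8), CLIP1 (35.2), CLASP1 (17.9), CLASP2 (16.0), MAPRE2 (12.1), CCSER2 (7.57) and SLAIN2 (6.75). The ranges of CKAP5, TACC3 and MAPRE3 overlapped from each to the next, as did those of CLASP2 and MAPRE2 and of CCSER2 and SLAIN2, so these neighbours are not ordered beyond their spread. In siCEP20 libraries MAPRE1 (173 TPM) was again highest, and CLIP1 (75.1) stood beside CKAP5 (74.9) with overlapping ranges, ahead of TACC3 (62.1) and MAPRE3 (42.0). CLASP1 (21.9) and CLASP2 (19.7) followed. CCSER2 (14.0), MAPRE2 (12.4) and SLAIN2 (12.0) came last. The range of MAPRE2 overlapped those of CCSER2 and SLAIN2, which were apart from each other.

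Other plus-end genes were described from lists of related proteins, also chosen with earlier results of these data known. Of 56 such genes 49 were tested, and 22 rose and 1 fell (30.2% and 13.2% of all tested genes), with 4 called higher and 1 called lower (11.2% and 4.61% of all tested genes) and a median log2 fold change of 0.26. Of 9 other CAP-Gly genes, relatives of CLIP1, 3 rose and 1 fell (30.2% and 13.2% of all tested genes did). Their median of 0.11 was just below that of all tested genes. CLIP2, a brain-enriched CLIP, rose from 31.9 ± 0.834 to 42.6 ± 1.46 TPM and DCTN1, the large dynactin subunit that CLIP1 recruits, from 106 ± 7.10 to 133 ± 2.19 TPM (SD, n = 3 each), although DCTN1 was not past the threshold after the length and GC correction (0.13, limma adjusted p = 0.0926). TBCB, a chaperone of alpha-tubulin, was the gene that fell, from 589, 565 and 574 TPM to 366, 396 and 371 TPM (log2 fold change -0.61, limma adjusted p = 9.08e-05, called), and it was not called after the length and GC correction (-0.57). The counts of CAP-Gly genes that rose or fell were near the shares of all tested genes.

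Of 25 other EB-binding genes 19 were tested, and 8 rose and none fell (30.2% and 13.2% of all tested genes). None was called higher or lower (11.2% and 4.61% of all tested genes were), and the median was 0.25. DST, a spectraplakin that links filaments, had a log2 fold change of 0.53, GAS2L1, which links actin and microtubules, 0.37, and STIM1, the calcium sensor of the endoplasmic reticulum that EB1 carries at growing tips, 0.29 (limma adjusted p = 0.00209, 0.0088 and 0.00757). With median-of-ratios scaling GAS2L1 (0.23) and STIM1 (0.14) were not past the threshold, nor was STIM1 after the length and GC correction (0.10). Of 6 TACC and clathrin partners 2 rose (30.2% of all tested genes did). TACC2 was at 91.4, 94.6 and 93.2 TPM in siCTR and 129, 144 and 172 TPM in siCEP20 (log2 fold change 0.66, called), but was under the fold threshold with median-of-ratios scaling (0.51), the length and GC correction (0.38) and without siCEP20 3 (0.55). The phosphoinositide kinase PIK3C2A had a log2 fold change of 0.54 (limma adjusted p = 0.00477). TACC1 did not pass the test (0.39, limma adjusted p = 0.0594), but did without siCTR 3 (0.50, limma adjusted p = 0.0272) and with a minimum of 5 TPM (limma adjusted p = 0.044).

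Of 8 tested genes of the cortical complexes that anchor CLASPs at the cell edge 5 rose (30.2% of all tested genes did). They included the kinesin KIF21A, which limits growth at the cortex (log2 fold change 0.61, limma adjusted p = 0.00106, called). The CLASP anchor PHLDB2 (0.55, limma adjusted p = 0.00299) and KANK2, which ties adhesions to that complex (0.35, limma adjusted p = 0.00998), rose as well. KANK2 was not past the threshold after the length and GC correction (0.13, limma adjusted p = 0.166). KIF21A stayed past the adjusted p but fell under the fold threshold with median-of-ratios scaling (0.47), quantile normalization (0.46), the length and GC correction (0.37), without siCTR 1 (0.56) and without siCEP20 2 (0.58). Of 7 CLIP partners 4 rose (30.2% of all tested genes did). RAC1, a small GTPase of the cell edge, was at 217, 245 and 248 TPM in siCTR and 430, 612 and 462 TPM in siCEP20 (log2 fold change 1.06, limma adjusted p = 0.00041). GSK3B, a kinase that acts on CLASPs and other plus-end proteins, had a log2 fold change of 0.67 (limma adjusted p = 0.00236, called), and was under the fold threshold with median-of-ratios scaling (0.53), quantile normalization (0.53) and the length and GC correction (0.41). IQGAP1, the scaffold that joins CLIP1 to actin, had a log2 fold change of 0.56 (limma adjusted p = 0.00422).

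Tubulins are the substrate of the plus end. Of 10 tubulin genes 9 rose (30.2% of all tested genes did), and 2 were called higher (11.2% of all tested genes were), with a median log2 fold change of 0.42. TUBA4A was at 116, 127 and 137 TPM in siCTR and 342, 344 and 418 TPM in siCEP20 (log2 fold change 1.53, limma adjusted p = 3.78e-05), TUBA1A had a log2 fold change of 0.82 (limma adjusted p = 6.28e-05) and TUBB6 0.53 (limma adjusted p = 0.000289). Tubulin paralogs are near-identical in sequence and TUBA1A overlaps TUBA1C, so the split between them is uncertain. Summed tubulin TPM was 2792 to 3083 in siCTR and 3988 to 4221 in siCEP20 libraries.

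Because CKAP5 and TACC3 are also mitotic proteins, genes of the G2 and M phases were set beside them. Of 18 such genes 12 rose and 1 fell (30.2% and 13.2% of all tested genes), with a median of 0.37, and 3 (MKI67, CENPF and CENPE, named after their values were seen) were called higher (11.2% of all tested genes). The 3 with the highest mean TPM over all 6 libraries differed in direction, and in siCTR alone CDC20 (118 TPM) stood above PLK1 (104 TPM). UBE2C had a log2 fold change of 0.08 (limma adjusted p = 0.51), CCNB1 fell by 0.25 on the log2 scale (limma adjusted p = 0.0122) and PLK1 rose by 0.30 (limma adjusted p = 0.028), but was not past the threshold with median-of-ratios scaling (0.15, limma adjusted p = 0.148) and under several other settings. All 18 genes summed to 993, 1039 and 1170 TPM in siCTR and 1212, 1268 and 1180 TPM in siCEP20 libraries, with little distance between siCTR 3 and siCEP20 3. The part of cell cycle position in the values of CKAP5 and TACC3 was not tested.

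**Figure D5:**
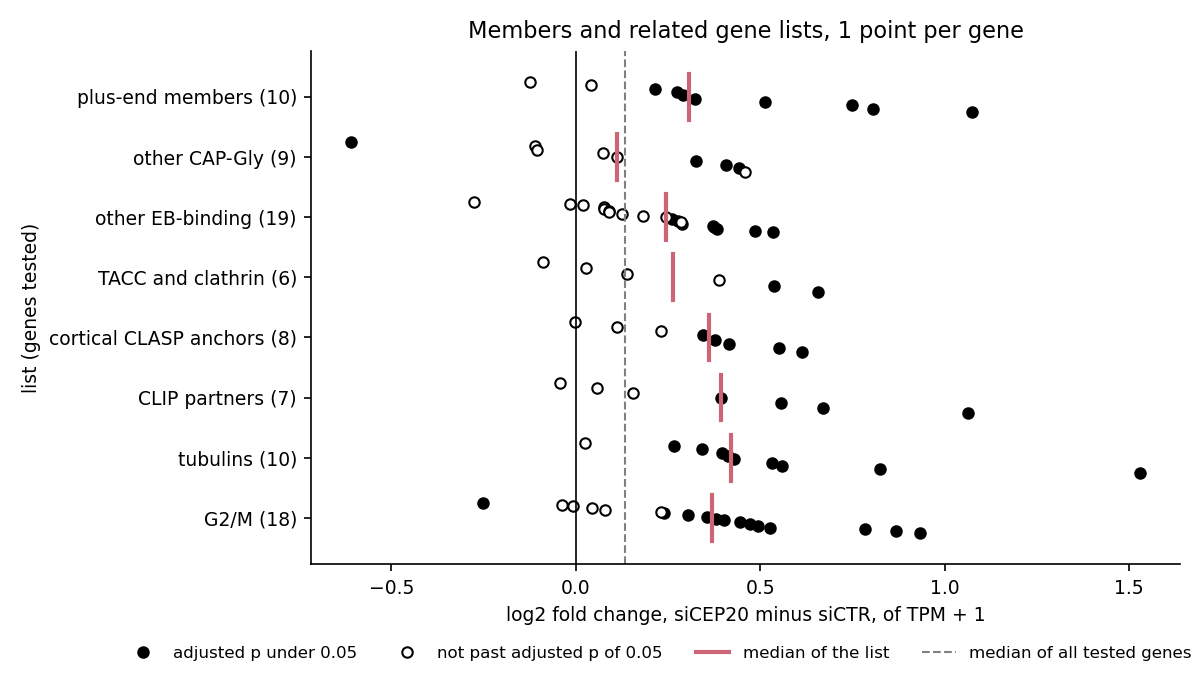
Log2 fold change (siCEP20 minus siCTR, TPM + 1) of each tested gene of the plus-end members and 7 related lists, filled where the limma adjusted p was under 0.05, with the list's median in red and the median of all tested genes (0.13) dashed. Most points lie to the right of 0, TBCB lies farthest to the left and is the filled point left of 0 among the CAP-Gly genes, and TUBA4A lies farthest to the right.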

How the data were processed

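RNA-seq data of A549 cells comprised 3 siCEP20 and 3 siCTR samples. According to the submitters' processing notes, reads were trimmed with fastp 0.20.1, aligned to hg38 with HISAT2 2.1.0 and quantified with StringTie 2.0, and the authors deposited a table with the TPM of each Ensembl gene. Read counts and depth cannot be recovered from TPM, so no count test could be run and precision rests on the 3 samples of a group. HISAT2 ran with default settings, while the annotation release and StringTie's strand setting are not given in the sources used here. The labels do not say whether the 3 samples of a group came from separate cultures, so p-values measure only the spread between these samples. Columns were matched to samples by name.

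GENCODE release 44 named 60370 of the 60624 genes. Genes averaging 1 TPM or more were compared on the log2(TPM + 1) scale with R 4.3.3 and limma 3.58.1 (a linear fit with trended eBayes, Benjamini-Hochberg adjustment over all tested genes), without rescaling or a term for the replicate number. Ratios within a library were compared with two-sided exact permutation tests in Python 3.11.15 with scipy 1.17.1, and adjusted over 8 ratios. Steps were tested on simulated data. The members and lists were chosen with earlier results of these data known. The genes named were the members, CEP20, the 3 genes of each related list with the smallest adjusted p, and the 3 G2/M genes with the highest mean TPM, besides the marker genes. Promoter sequences came from RefSeq (GRCh38.p14), and all 10 symbols matched. The loess curve of the length and GC correction (span 0.5) also centred each library. The settings varied were the pseudocount (0.1), the filter (none, or 5 TPM), the scaling (median of ratios, quantile, or the length and GC correction), the eBayes trend, a block for the replicate number, a fold change of 2, ratios of TPM + 1, each library left out in turn and, chosen after seeing the data, removal of MTATP8P1 with TPM rescaled.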

Additional observations from a re-analysis of the deposited data

How the results depend on the processing

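Of the 10 plus-end genes, 5 were higher past the adjusted p with median-of-ratios scaling and 5 with the length and GC correction, against 8 with TPM as deposited, and 1 was lower with median-of-ratios scaling. Under the length and GC correction 1 was called higher, and 1 with a fold change of 2 required. For the other plus-end genes, the number called higher was 1 with median-of-ratios scaling, 2 with quantile normalization and 1 with the length and GC correction. The number lower past the adjusted p was 4, 2 and 8 in that order, 11 were higher with the length and GC correction and 0 called lower. Over all genes, 1659 were called higher and 682 lower (70.9% of calls higher) with TPM as deposited, 894 and 1103 (44.8%) with median-of-ratios scaling, 923 and 1016 (47.6%) with quantile normalization, 893 and 878 (50.4%) with the length and GC correction, and 261 and 147 with a fold change of 2. Past the adjusted p, 2963 were higher and 3185 lower with median-of-ratios scaling, 2938 lower with quantile normalization, and 2908 and 3112 with the length and GC correction. MAPRE2 turned to -0.10, -0.12 and -0.16 under these 3 scalings and UBE2C to -0.072 with median-of-ratios scaling. The causes were not tested.

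With each library left out in turn, the log2 fold change of MAPRE2 ran from -0.056 (without siCTR 2) to 0.14 and was also below 0 without siCEP20 2 (-0.047). Under the same settings 6 to 8 members were higher past the adjusted p and 3 or 4 called higher (4 without siCTR 2). Of the 14733 to 14818 genes then tested, 3351 to 4340 were higher past the adjusted p and 1492 to 1736 lower. Those called higher numbered 1381 to 1905. Among the other plus-end genes 1 or 2 were lower past the adjusted p (2 without siCTR 1 or siCTR 3) and 3 to 7 called higher (7 without siCTR 3). The log2 difference of CLASP1 to CLASP2 ran from -0.084 to 0.060, positive without siCTR 1 or siCEP20 3 (0.0058). Removing MTATP8P1 changed no member's call. Whether the replicate numbers pair the samples is not settled. Deviations from the group means correlated at 0.157, -0.0614 and -0.0623 between same-numbered samples. Between differently numbered samples they correlated at -0.121 to 0.17. The libraries siCTR 1 and siCEP20 1 also shared the high MTATP8P1 value. With the replicate block, 8 members were higher, 3 of them called, as without it, beside 4274 higher and 1654 called higher of all 14778 tested genes. What sequencing depth limits could not be assessed from TPM, and precision rests on 3 samples a group.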
